A study of Gallus gallus with 6 samples.

Results

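Interferon-stimulated genes are the genes that cells switch on when an interferon binds its receptor. In the mammalian scheme, type I and type III interferons act through the kinases JAK1 and TYK2 and a factor that includes STAT2 and IRF9, which switches on antiviral effectors such as MX1, RSAD2 and the IFIT and OAS families. Interferon gamma acts in part through IRF1 and induces guanylate-binding proteins, CD274 and SOCS1. In mammalian macrophages, LPS sensing also leads to interferon production. Chickens, which lack the sensor RIG-I and the factor IRF3, rely on the RNA sensor IFIH1 and on IRF7.

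The 44 symbols listed as chicken interferon-induced effectors, sensors and factors were looked up by gene name in the deposited expression table, and 32 had a row among its 27656 genes. All 32 were tested, and their lowest count in any library was 13. The remaining 12 symbols were not analysed here under their own names: SAMD9L, XAF1, ISG12-2, IFITM1, IFITM3, GBP1, GBP4L, GBP7, PARP14, DTX3L, ZNFX1 and LGALS3BP. RefSeq's chicken gene table gives ISG12-2 as a synonym of IFI6, which has a row, and gives IRF10 as a synonym of the gene named IRF9 in the table.

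The values come from RNA-seq of ileal cells of broiler chickens that were sorted by flow cytometry with KUL01, an antibody that labels chicken macrophages. The LPS+LR21 group (3 libraries) came from birds given both an LPS injection and a gavage of Lactobacillus reuteri, and the LPS group (3 libraries) from birds given the LPS injection without the gavage. All birds therefore carried the LPS challenge, and no group without LPS was analysed here. Broiler strain, age, doses and times, and whether each library is 1 bird, are not given in the sources used here. The LPS+LR21 libraries are named by their columns, LR1_2, LR3 and LR4, and no source used here says if LR1_2 was pooled. Because libraries are not said to be separate birds, p-values describe the spread between libraries, which may be technical.

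Total counts were between 31284679 and 45492503 per library. Genes with at least 1 count numbered 22493, 18811 and 24539 in LR1_2, LR3 and LR4, against 23525, 23240 and 23087 in LPS1, LPS2 and LPS3. LR3 thus had the fewest, and it was the lowest library for 29.7% of all tested genes. The sorted material held macrophage and other transcripts in proportions that differed between libraries. The 12 macrophage markers (CSF1R, MARCO, CD14 and others) summed to 1627, 3794 and 1382 FPKM in LR1_2, LR3 and LR4, against 4927 to 6740 FPKM in the LPS libraries. The 11 epithelial markers with a row (EPCAM, CDH1, VIL1 and others) summed to 5965, 1086 and 3720 FPKM in LR1_2, LR3 and LR4, against 362 to 696 FPKM in the LPS libraries, and 3 of them rose (EPCAM, SLC5A1 and SLC15A1). Of the macrophage markers VSIG4 fell, as did COL1A2 and COL3A1 of the fibroblast and muscle markers. The 8 genes with a row that were listed as heterophil markers summed to 506, 4160 and 242 FPKM in LR1_2, LR3 and LR4. They summed to 1113, 2762 and 6362 FPKM in LPS1, LPS2 and LPS3. None of them passed. Most of each sum was AVD, with 406, 3709 and 125 FPKM in LR1_2, LR3 and LR4. AVD had 797, 2310 and 5022 FPKM in LPS1, LPS2 and LPS3, so the sums mainly follow that gene. It is not shown here to mark heterophils, so these sums are not a measure of heterophil content. The T and NK cell markers summed to 332 to 493 FPKM in the LPS+LR21 libraries and 140 to 189 FPKM in the LPS libraries. GZMA alone held 202.5 of the 332 FPKM in LR1_2. The median log2 value of the 11 tested T and NK cell markers over the LPS mean was 0.25, 1.28 and 0.80 in LR1_2, LR3 and LR4, and none of them passed. No marker of these lists was at 0 in every library, TBX21 being at 0 in all but LPS1. In bulk samples, fewer cells of a type and less RNA per cell cannot be told apart, and the part that these differences play in the values below was not tested.

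No interferon-stimulated gene passed the test between LPS+LR21 and LPS. Of the 32 genes, 0 rose and 0 fell at an adjusted p under 0.05 (quasi-likelihood test of edgeR, Benjamini-Hochberg adjusted over 20745 genes), where 0.974% of all tested genes rose and 0.0819% fell. The smallest adjusted p was 0.109, for HELZ2. At an unadjusted p under 0.05, 6 of the 32 were higher and 2 lower, against 7.46% and 4.60% of all tested genes. By fitted value 23 of the 32 lay above 0 and 9 below it, where 9022 and 11723 of the 20745 tested genes did. Their median log2 fold change was 0.34, beside a median of -0.14 over all tested genes. DESeq2 on the same counts called 4 of the 32 higher (RSAD2, OASL, HELZ2 and IFI27L2) and 1 lower (GBP), where it called 8.44% and 3.02% of the genes to which it gave an adjusted p. Without LR1_2 the median of the 32 genes was 0.10, and 0 of them passed, in a fit that called 0.0% of all tested genes in either direction. The plot of fitted fold changes shows the range, from 2.42 for IFI6 to -2.30 for GBP.

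**Figure D1:**
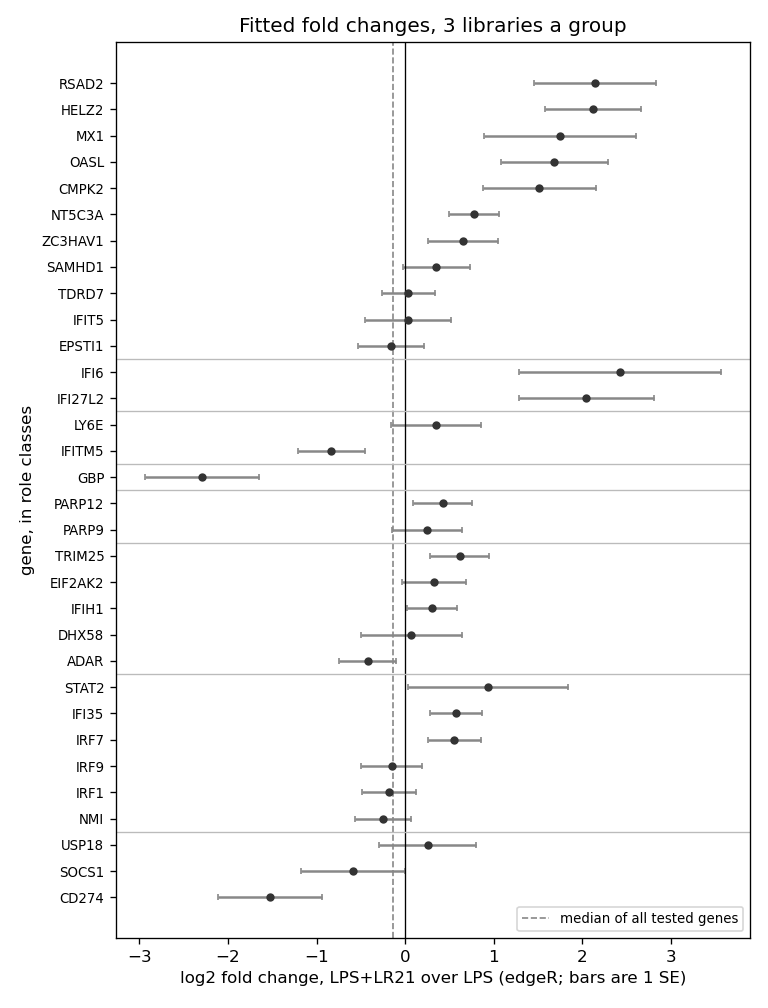
Fitted log2 fold change, LPS+LR21 over LPS, of the 32 interferon-stimulated genes in 8 role classes separated by lines (points, edgeR; bars are 1 SE; 3 libraries a group). The antiviral effectors at the top and the IFI6 and IFI27L2 pair hold the highest values, and GBP and CD274 the lowest, with -2.30 and -1.53; the dashed line is the median of all tested genes, -0.14.

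Many of the genes followed at least 1 of 3 patterns across the libraries. The patterns were picked out after the values were seen and are given as a description. Other genes, such as IRF1, IFIT5 and NMI, followed none of them. One set was far higher in LR1_2 than in any other library, another was higher in all 3 LPS+LR21 libraries, and the last was low in LR1_2 and LR4. The first 2 sets overlap, OASL being in both. Of the 32 genes, 19 had their highest value of all 6 libraries in LR1_2, against 16.3% of all tested genes. Not all of them were far higher there, as NT5C3A had 14.3 FPKM in LR1_2 and 13.8 FPKM in LR3. Relative to the mean of the LPS group, the median of the 32 genes on the log2 scale stood at 0.81, 0.24 and 0.41 for LR1_2, LR3 and LR4, against 0.24, -0.28 and -0.11 for LPS1, LPS2 and LPS3. The highest library was over 2 times the lowest for 17 of the 32 genes within LPS+LR21 and for 15 within LPS. LR3 lay inside the LPS range for 19 genes, against 37.7% of all tested genes. The heat map of the genes by library shows these patterns.

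**Figure D2:**
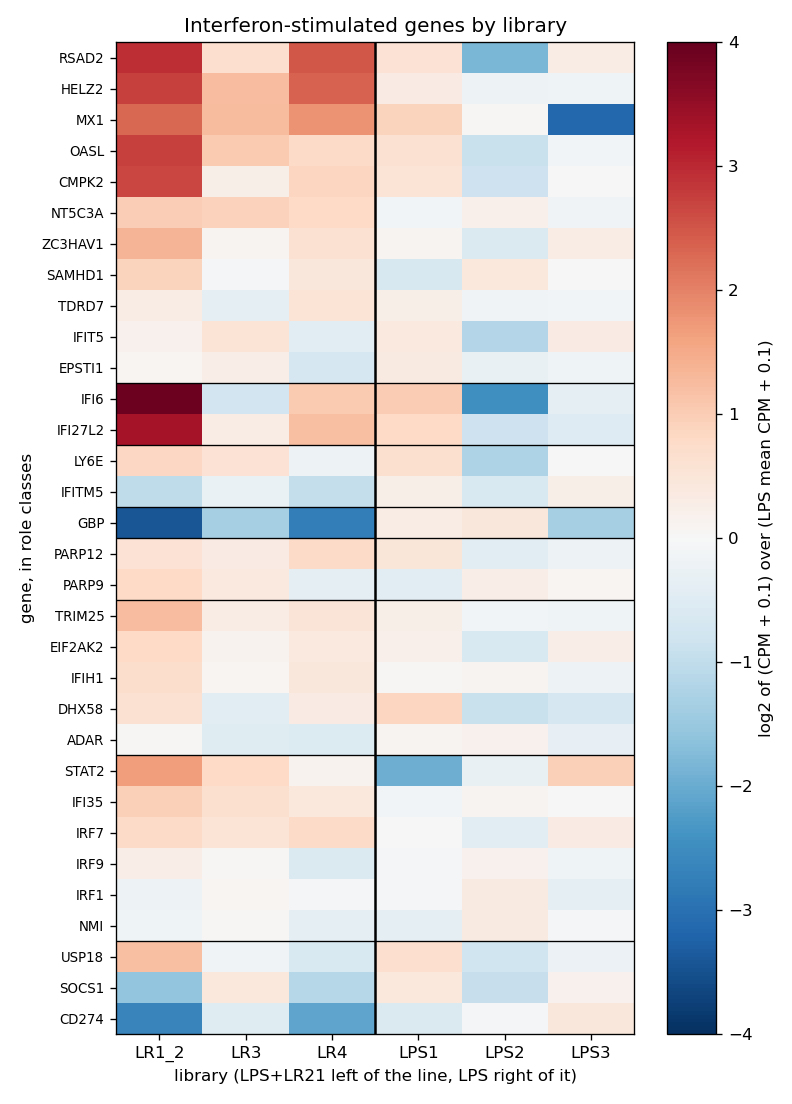
Log2 of CPM (counts scaled to the library total) plus 0.1 over the LPS mean CPM plus 0.1, for the 32 genes (rows, in role classes separated by lines) in the LPS+LR21 libraries left of the vertical line and the LPS libraries right of it. Red is above the LPS mean and blue below it; IFI6 and IFI27L2 in LR1_2 reach 3.91 and 3.32, while GBP and CD274 in LR1_2 reach -3.42 and -2.65.

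IFI6 and IFI27L2, small hydrophobic proteins of the ISG12 family, had the widest spread of the 32 genes within LPS+LR21. IFI6 (ENSGALG00010007911, chromosome 2, 89340072 to 89344626, plus strand) had 821, 32.2 and 112 FPKM in LR1_2, LR3 and LR4, against 111.5, 9.96 and 42.4 FPKM in LPS1, LPS2 and LPS3. LR1_2 was thus 7.32 times LR4 and 25.5 times LR3, and the groups overlapped. The LPS libraries themselves differed by 11.2 times. The log2 fold change was 2.42 ± 1.14 (SE, adjusted p = 0.452, edgeR) and it was 0.14 without LR1_2. IFI27L2 (ENSGALG00010013837, chromosome 23) had 66.5, 8.11 and 15.3 FPKM in the LPS+LR21 libraries and 11.6, 3.75 and 4.63 FPKM in the LPS libraries. It shared the order of IFI6 in both groups, with LR1_2 highest, LR3 inside the LPS range and LPS2 lowest. Its log2 fold change was 2.04 ± 0.76 (SE, adjusted p = 0.288, edgeR), or 0.62 without LR1_2.

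Several antiviral effector genes were also highest in LR1_2. OASL, of the oligoadenylate synthetase family that senses double-stranded RNA (ENSGALG00010027634, chromosome 12, 3411597 to 3413953, minus strand), had 412.5, 127.5 and 104 FPKM in LR1_2, LR3 and LR4, against 94.0, 33.4 and 57.3 FPKM in LPS1, LPS2 and LPS3. By library totals all 3 LPS+LR21 values were above the LPS values, LR4 narrowly so. The log2 fold change of 1.68 ± 0.60 (SE, adjusted p = 0.265, edgeR) was 0.79 without LR1_2. RSAD2 encodes viperin, an enzyme that makes a chain-terminating nucleotide, and CMPK2 encodes a nucleoside monophosphate kinase. They are neighbours on chromosome 3, transcribed away from each other with 5267 bases between them (RSAD2 94677178 to 94702147, plus strand; CMPK2 94664883 to 94671910, minus strand).

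The 2 neighbours shared a high LR1_2 and a low LPS2 but differed in LR4. RSAD2 had 16.8, 3.44 and 12.1 FPKM in LR1_2, LR3 and LR4, against 3.22, 0.589 and 2.64 FPKM in LPS1, LPS2 and LPS3. Its groups did not overlap, although LR3 was close to LPS1, and the log2 fold change was 2.14 ± 0.69 (SE, adjusted p = 0.205, edgeR). CMPK2 had 39.0, 7.08 and 11.0 FPKM in the LPS+LR21 libraries and 8.83, 3.42 and 5.97 FPKM in the LPS libraries. Its groups overlapped through LR3, and its log2 fold change of 1.51 ± 0.63 (SE, adjusted p = 0.373, edgeR) was 0.39 without LR1_2. Between LR1_2 and LR4, CMPK2 differed by 3.54 times and RSAD2 by 1.39 times, while the summed epithelial markers differed by 1.60 times and the summed macrophage markers by 1.18 times. Between LR1_2 and LR3, CMPK2 differed by 5.51 times, RSAD2 by 4.89 times and the summed epithelial markers by 5.49 times. That sum leans on FABP2, which held 3663 of the 5965 FPKM in LR1_2 and differed by 7.68 times. Among the other epithelial markers SLC5A1 differed by 2.18 times, EPCAM by 3.48 times and KRT20 by 5.75 times. Of the 11 markers, 9 were highest in LR1_2 and 2 (SLC15A1 and CLDN3) in LR4. Other interferon-stimulated genes highest in LR1_2 differed more between LR1_2 and LR3, as IFI6 (25.5 times) and IFI27L2 (8.2 times). Some differed less, as OASL (3.24 times), HELZ2 (2.81 times) and MX1 (2.02 times). The part of the epithelial content in these ratios was not tested.

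MX1, a dynamin-like GTPase that blocks viruses in many species, was low. It had 4.86, 2.41 and 3.46 FPKM in LR1_2, LR3 and LR4, against 1.83, 1.01 and 0.0842 FPKM in LPS1, LPS2 and LPS3, and the fitted log2 difference was 1.74 ± 0.86 (SE, adjusted p = 0.486, edgeR). The groups did not overlap, and LPS3 was the lowest by far, with 13 counts. Without LPS3 the log2 fold change was 1.21. The sources used here do not say if counting used strand, and 49.2% of the MX1 span (ENSGALG00010013809, chromosome 1, 109001642 to 109022485, plus strand) is overlapped on the other strand by TMPRSS2, a membrane serine protease gene. TMPRSS2 rose, with 28.8, 12.3 and 27.2 FPKM in the LPS+LR21 libraries and 5.44, 3.38 and 3.83 FPKM in the LPS libraries (adjusted p = 0.0381, edgeR). How much of the MX1 count came from that strand was not tested.

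HELZ2, a helicase and transcriptional co-activator gene (ENSGALG00010016426, chromosome 20, 10074624 to 10097356, plus strand), had the smallest p of all 32 genes at a very low level. It had 1.10, 0.392 and 0.864 FPKM in LR1_2, LR3 and LR4, against 0.202, 0.140 and 0.142 FPKM in LPS1, LPS2 and LPS3. The groups did not overlap, and the log2 fold change was 2.12 ± 0.54 (SE, adjusted p = 0.109, edgeR). Its order within the LPS+LR21 group was LR1_2, then LR4, then LR3. RSAD2, MX1, IFI6, IFI27L2, CMPK2 and SAMHD1 were among the genes with the same order, and OASL had another. The summed epithelial markers had it too, but the share of all tested genes with this order was not counted, and a link was not tested. Without LR3, RSAD2, HELZ2 and IFI27L2 rose, with adjusted p of 0.0229, 0.0131 and 0.0353 by edgeR, where 4.83% of all tested genes rose.

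The set that was higher in all 3 LPS+LR21 libraries included genes of even level. NT5C3A, a pyrimidine nucleotidase gene (ENSGALG00010019283, chromosome 2, 47889162 to 47912715, plus strand), had 14.3, 13.8 and 12.6 FPKM in LR1_2, LR3 and LR4, against 6.76, 8.43 and 6.67 FPKM in LPS1, LPS2 and LPS3. It averaged 13.6 ± 0.898 FPKM in the LPS+LR21 libraries and 7.28 ± 0.991 FPKM in the LPS libraries (SD, n = 3 each), with no overlap. The log2 fold change was 0.77 ± 0.28 (SE, adjusted p = 0.279, edgeR), and it lay between 0.73 and 1.00 when any 1 of the 6 libraries was left out.

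IRF7, the factor that drives type I interferon genes in chickens, lay next to it in pattern. IRF7 (ENSGALG00010023005, chromosome 5, 15442101 to 15446251, plus strand) had 54.4, 46.9 and 55.1 FPKM in LR1_2, LR3 and LR4, against 31.4, 24.2 and 40.6 FPKM in LPS1, LPS2 and LPS3. IFI35, which in human cells forms a complex with NMI (ENSGALG00010022439, chromosome 27, 5100499 to 5103756, plus strand), had 119, 96.8 and 83.0 FPKM in the LPS+LR21 libraries and 57.2, 66.6 and 61.1 FPKM in the LPS libraries. Neither gene's groups overlapped, and their log2 fold changes were 0.55 ± 0.30 and 0.57 ± 0.29 (SE, adjusted p of 0.551 and 0.511, edgeR). NMI itself had 17.4, 20.2 and 15.2 FPKM in the LPS+LR21 libraries and 14.8, 25.1 and 18.4 FPKM in the LPS libraries, which overlapped. In all, 8 of the 32 genes were higher in every LPS+LR21 library than in every LPS library (MX1, RSAD2, OASL, HELZ2, NT5C3A, TRIM25, IRF7 and IFI35), against 12.3% of all tested genes, and GBP alone was lower in every one, against 7.10%. These counts use library totals. The TMM scaling of the fold changes gave LR4 a factor of 1.19 and LPS1 one of 0.943, so the narrow separations of OASL and TRIM25 depend on the scaling.

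**Figure D3:**
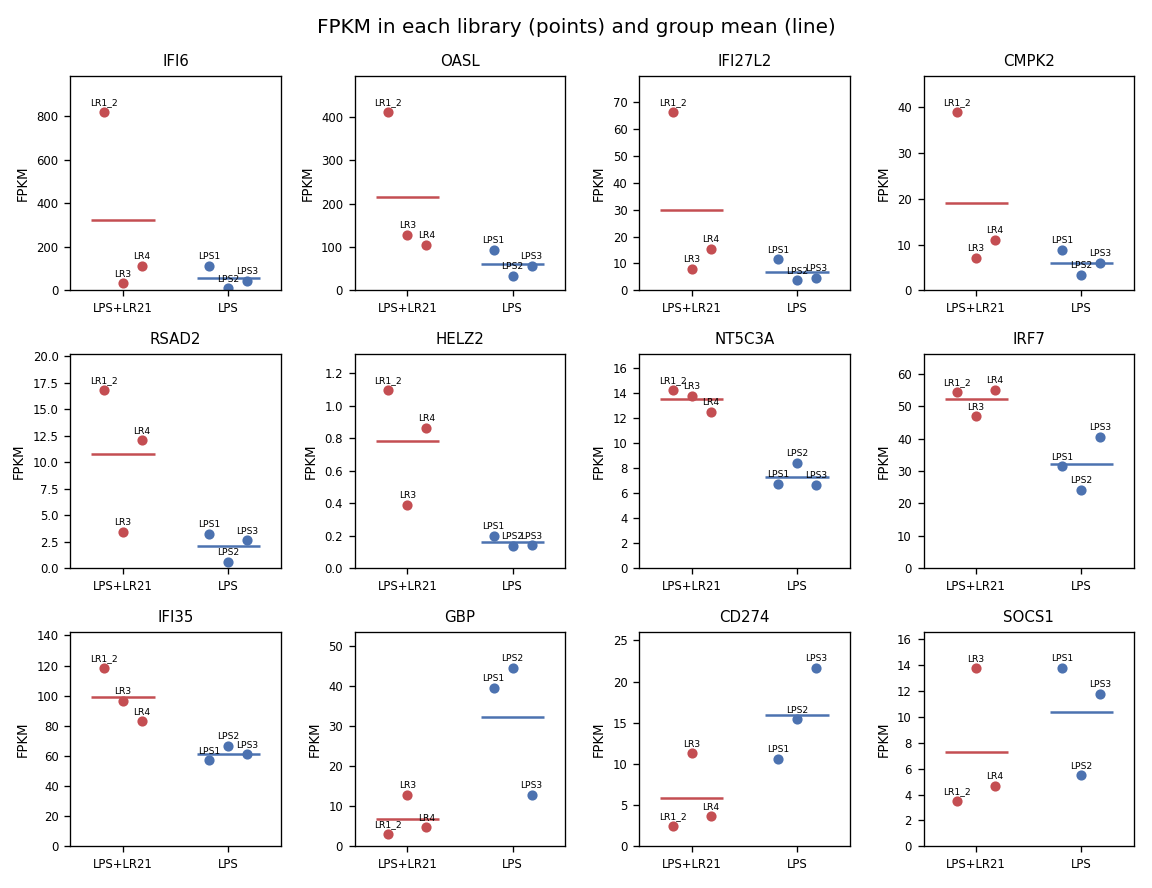
FPKM of 12 interferon-stimulated genes in each library (points, named) with the group mean (line), LPS+LR21 left and LPS right in each panel, each axis starting at 0. IFI6, OASL, IFI27L2 and CMPK2 stand highest in LR1_2, at 821, 412.5, 66.5 and 39.0 FPKM; NT5C3A, IRF7 and IFI35 are higher in every LPS+LR21 library; GBP, CD274 and SOCS1 are low in LR1_2 and LR4, with LR3 higher.

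GBP, CD274 and SOCS1, known as targets of interferon gamma, had the opposite arrangement across the LPS+LR21 libraries. GBP, a guanylate-binding GTPase gene (ENSGALG00010028163, chromosome 12, 2412938 to 2441816, minus strand), had 3.01, 12.9 and 4.78 FPKM in LR1_2, LR3 and LR4, against 39.6, 44.6 and 12.9 FPKM in LPS1, LPS2 and LPS3. LR3 and LPS3 were nearly equal, and the log2 fold change was -2.30 ± 0.64 (SE, adjusted p = 0.141, edgeR). Guanylate-binding proteins are a family of similar genes and 2 other genes overlap this one on the same strand, so its counts are uncertain. CD274, the T cell inhibitory ligand PD-L1 (ENSGALG00010012871, chromosome Z, 28080366 to 28097003, plus strand), had 2.52, 11.3 and 3.64 FPKM in the LPS+LR21 libraries and 10.6, 15.4 and 21.7 FPKM in the LPS libraries. LR3 lay inside the LPS range, and the log2 fold change was -1.53 ± 0.59 (SE, adjusted p = 0.313, edgeR).

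SOCS1, an inhibitor of JAK kinases, had 3.48, 13.8 and 4.69 FPKM in LR1_2, LR3 and LR4, against 13.8, 5.47 and 11.8 FPKM in LPS1, LPS2 and LPS3, so that LPS2 was nearly as low as LR4. For all 3 genes the order in the LPS+LR21 group was LR3, then LR4, then LR1_2. By library totals this order was not particular to these 3 genes. IFITM5 had it too, with 8.83, 14.8 and 9.18 FPKM in LR1_2, LR3 and LR4, LR4 being only narrowly above LR1_2. The pathway genes IFNAR1 and JAK1 also had it. CSF1R, the macrophage growth factor receptor, had the same order, with 59.3, 165 and 93.3 FPKM in LR1_2, LR3 and LR4, against 287 to 349 FPKM in the LPS libraries. The summed macrophage markers did not have it, being lowest in LR4. Singly, 7 of the 12 macrophage markers were lowest of all 6 libraries in LR1_2 and 5 in LR4. Those 7, CSF1R among them, had the same order by library totals. A link was not tested. With library quality weights in limma-voom, RSAD2 and HELZ2 rose and GBP and CD274 fell, where 5.11% of all tested genes rose and 4.32% fell. Without LR3, GBP and CD274 fell, with log2 fold changes of -3.17 and -2.52 and adjusted p of 0.00413 and 0.00471 by edgeR, where 3.82% of all tested genes fell. When libraries were scaled to the macrophage markers in place of all genes, GBP and CD274 were the 2 of the 32 genes still fitted below 0, at -1.01 and -0.34, while SOCS1 was at 0.67. That scaling raised the median of all tested genes by 1.72 on the log2 scale and called 22 of the 32 genes higher and 0 lower, where it called 24.7% and 0.0193% of all tested genes. The difference between the median of the 32 genes and the median of all tested genes was 0.45 under it and 0.47 with the usual scaling. A change of scaling shifts all genes by nearly the same amount, so this difference could hardly move and is no check on the 32 genes.

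IRF1, the factor that mediates many interferon gamma responses, had the same LPS+LR21 order as GBP, CD274 and SOCS1. Its spread there was small, the highest library being 1.23 times the lowest. The order is by library totals. TMM gave LR1_2 a factor of 1.02 and LR4 one of 1.19, so the place of LR4 above LR1_2 depends on the scaling. It had 55.9, 68.7 and 61.6 FPKM in LR1_2, LR3 and LR4, against 61.8, 83.3 and 49.6 FPKM in LPS1, LPS2 and LPS3, with full overlap and a fitted log2 difference of -0.18 ± 0.30 (SE, adjusted p = 0.923, edgeR). STAT2, part of the type I interferon factor, was scarce and irregular. It had 1.44, 0.776 and 0.477 FPKM in the LPS+LR21 libraries and 0.0948, 0.352 and 0.853 FPKM in the LPS libraries. The gene named IRF9 carries the RefSeq synonym IRF10, so it is not shown here to be the partner of STAT2. It had 10.7, 9.38 and 6.03 FPKM in LR1_2, LR3 and LR4, against 8.80, 10.2 and 8.02 FPKM in LPS1, LPS2 and LPS3. Neither difference exceeded the spread between libraries (adjusted p of 0.836 for STAT2 and 0.951 for IRF9, edgeR).

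None of the sensors of foreign RNA passed the test. IFIH1, the double-stranded RNA sensor MDA5, had 10.1, 6.53 and 8.41 FPKM in LR1_2, LR3 and LR4, against 6.43, 6.71 and 5.38 FPKM in LPS1, LPS2 and LPS3. EIF2AK2, the kinase PKR that halts translation, had 11.2, 6.96 and 8.31 FPKM in the LPS+LR21 libraries and 7.39, 4.13 and 7.61 FPKM in the LPS libraries. Both had LR1_2 highest and overlapping groups, with log2 fold changes of 0.30 ± 0.29 and 0.32 ± 0.36 (SE). TRIM25, a ubiquitin ligase of RNA sensing, had 19.9, 10.4 and 11.9 FPKM in LR1_2, LR3 and LR4, against 9.98, 7.71 and 7.50 FPKM in LPS1, LPS2 and LPS3. Its groups did not overlap by library totals, though LR3 was within 1 FPKM of LPS1. Its adjusted p was 0.557 (edgeR), and genes on the other strand overlap its span. DHX58, the sensor LGP2, and ADAR, an RNA-editing enzyme, had log2 fold changes of 0.07 and -0.42, neither past the threshold.

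IFIT5, which binds RNA ends foreign to the cell, was the most abundant of the 32 genes in the LPS group, and its group means were close. It had 107, 141 and 69.4 FPKM in LR1_2, LR3 and LR4, against 125.5, 42.0 and 120 FPKM in LPS1, LPS2 and LPS3. The averages were 106 ± 35.8 FPKM in the LPS+LR21 libraries and 95.7 ± 46.6 FPKM in the LPS libraries (SD, n = 3 each), with a fitted log2 difference of 0.03 ± 0.49 (SE, adjusted p = 0.992, edgeR). LY6E, a membrane protein that limits virus entry, likewise had 46.8, 39.4 and 22.8 FPKM in the LPS+LR21 libraries and 41.3, 11.2 and 26.6 FPKM in the LPS libraries. USP18, a brake on the type I receptor in mammals, had 21.3, 8.38 and 6.12 FPKM in LR1_2, LR3 and LR4, against 14.7, 5.27 and 7.83 FPKM in LPS1, LPS2 and LPS3. In these 3 genes LPS2 was the lowest of the LPS libraries, as in 18 of the 32 genes, against 29.5% of all tested genes. IFITM5, of the family of interferon-induced transmembrane proteins, had 8.83, 14.8 and 9.18 FPKM in the LPS+LR21 libraries and 21.2, 11.8 and 20.9 FPKM in the LPS libraries (log2 fold change -0.83 ± 0.38 SE, adjusted p = 0.433, edgeR; 0.66 when scaled to the macrophage markers).

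PARP9 and PARP12 belong to the ADP-ribosyltransferase family. PARP9 had 11.6, 8.61 and 5.02 FPKM in LR1_2, LR3 and LR4, against 4.91, 7.92 and 7.04 FPKM in LPS1, LPS2 and LPS3. PARP12 had 6.96, 5.87 and 7.88 FPKM in the LPS+LR21 libraries and 6.46, 3.42 and 4.03 FPKM in the LPS libraries. ZC3HAV1, a protein that binds CpG-rich viral RNA, had a log2 fold change of 0.65 ± 0.40, the value for PARP12 was 0.42 ± 0.33, SAMHD1, which degrades deoxynucleotides, had 0.35 ± 0.38, PARP9 had 0.25 ± 0.39, TDRD7 had 0.04 ± 0.30 and EPSTI1 had -0.16 ± 0.37 (SE). None of these 6 genes passed, and their groups overlapped. ZC3HAV1 and SAMHD1 were highest in LR1_2, with 25.9 and 7.17 FPKM. Among the 23 of the 32 genes with a gene ontology annotation in the table, 7 (RSAD2, EIF2AK2, IRF1, IFIH1, IRF7, SAMHD1 and STAT2) carried the term defense response to virus, which 0.585% of 11112 annotated genes carry. Another 4 (USP18, SAMHD1, STAT2 and ADAR, so that 2 carry both) had the term for negative regulation of type I interferon signalling, which 12 annotated genes carry. The 32 genes lay on 16 chromosomes, and RSAD2 with CMPK2 was the only pair with under 100000 bases between its members.

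Interferon transcripts themselves were scarce in every library. IFNG, the interferon gamma gene, had 4, 56 and 14 counts in LR1_2, LR3 and LR4, against 21, 0 and 16 counts in LPS1, LPS2 and LPS3. The groups overlapped (log2 fold change 1.02 ± 1.72 SE, adjusted p = 0.925, edgeR), and LR1_2, the library with the highest IFI6, had few counts. IFNA3 names 5 rows, copies that could share reads, and each had 1 to 4 counts in every library. IFNW1, for which RefSeq gives the synonym IFNB, had 4, 0 and 0 counts in the LPS+LR21 libraries and 15, 0 and 14 counts in the LPS libraries. The lambda interferon genes IFNL3A and IFNL3 had 9 counts or fewer in every library. Of these interferon genes IFNG alone was tested. The others did not pass the filter on low counts, so a difference in them was not tested.

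The other genes of the pathway comprised 48 genes with a row, of which 44 were tested. None rose and none fell (0 of 44, smallest adjusted p = 0.232, edgeR), while at an unadjusted p under 0.05, 3 were higher and 7 lower, against 7.46% and 4.60% of all tested genes. The median log2 fold change was -0.13. DDX60, a helicase that aids RNA sensing in human cells, had the smallest p (ENSGALG00010008064, chromosome 4, 24556666 to 24603281, minus strand). It had 43.7, 2.87 and 9.15 FPKM in LR1_2, LR3 and LR4, against 4.55, 1.43 and 2.52 FPKM in LPS1, LPS2 and LPS3. That is the library order of IFI6 and IFI27L2, with LR1_2 4.78 times LR4, and its log2 fold change of 2.58 ± 0.87 (SE) was 0.83 without LR1_2.

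Of the receptors and kinases, 7 of 9 were fitted below 0, against 11723 of the 20745 tested genes. IFNAR1, a chain of the type I receptor, had 12.4, 40.6 and 25.0 FPKM in LR1_2, LR3 and LR4, against 49.2, 54.8 and 60.8 FPKM in LPS1, LPS2 and LPS3, and its groups did not overlap (log2 fold change -1.19 ± 0.44 SE, adjusted p = 0.280, edgeR). IFNGR1, a chain of the interferon gamma receptor, had 16.6, 35.2 and 27.0 FPKM in the LPS+LR21 libraries and 44.5, 34.6 and 46.2 FPKM in the LPS libraries. The IFNGR1 groups overlapped. Both receptor genes were lowest in LR1_2, as were 16 of the 44 tested pathway genes, against 21.7% of all tested genes. In that library 8 of the 11 effector genes were highest, against 16.3% of all tested genes, and a link between these counts was not tested.

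Among the other factors and brakes, IRF4, a factor of lymphocytes and some myeloid cells, had 7.72, 19.6 and 9.08 FPKM in LR1_2, LR3 and LR4, against 6.35, 2.94 and 5.22 FPKM in LPS1, LPS2 and LPS3. PTPN6, the phosphatase SHP-1 of blood cells, had 61.2, 149 and 71.5 FPKM in the LPS+LR21 libraries and 181.5, 168.5 and 172 FPKM in the LPS libraries. The groups did not overlap for either gene, and neither passed (adjusted p of 0.325 and 0.386, edgeR). Without LR3, 10 pathway genes fell (among them IFNAR1, JAK1 and PTPN6) and DDX60 rose, where 3.82% of all tested genes fell and 4.83% rose. Scaled to the macrophage markers, none of the pathway genes fell and 16 rose, where 0.0193% and 24.7% of all tested genes did so.

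**Figure D4:**
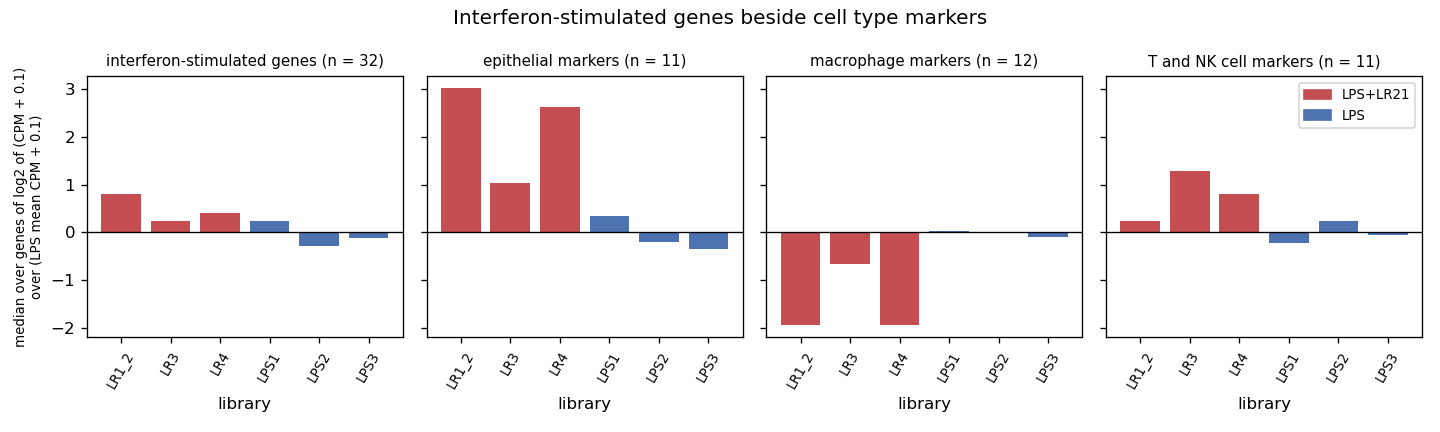
Median over genes of log2 CPM plus 0.1 relative to the LPS mean, in each library (bars; LPS+LR21 left, LPS right), for the 32 interferon-stimulated genes and for the epithelial, macrophage, and T and NK cell markers that were tested. The interferon-stimulated genes range from 0.81 in LR1_2 to -0.28 in LPS2, whereas the epithelial markers reach 3.03 in LR1_2 and the macrophage markers -1.95 in LR4.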

How the data were processed

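Per the labels' protocols, libraries were made from polyadenylated RNA. Cutadapt 1.9, HISAT2 2.0.4, StringTie 1.3.4d and edgeR are named in the submitters' processing notes, with no role given. Neither a genome build nor the treatment of strand is given in the sources used here; coordinates are those of the deposited table. Per the file headers, the table holds a whole-number count and an FPKM per gene and library; the counts were deposited without normalization and the authors computed FPKM. The 3 deposited FPKM columns of LPS+LR21 match no single sample and were not used. FPKM was recomputed for all 6 libraries from counts, library totals and gene lengths derived from the LPS columns as deposited, and lay within 5% of the deposited LPS values for 9889 genes with at least 100 counts in each.

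LPS columns were matched to samples by number. The numbers in the 3 LPS+LR21 column names differ from those in the titles, so these columns stand for the group only.

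Counts were tested two-sided with edgeR's glmQLFTest (version 4.0.16, in R 4.3.3) on the 20745 genes left by filterByExpr, with TMM scaling, no covariate and a threshold of 0.05 on the adjusted p. The steps were run on simulated data, with a required recovery only for edgeR at a spread between libraries well below that of these data. The common biological coefficient of variation, the relative spread between libraries of a group, was 0.773 in these data. Recovery at that spread is not reported here, so the simulation is no check on what the tests could detect. Standard errors are the fold change over the square root of F. Values per library, overlaps and library orders use library totals. Precision is limited by counting error and by 3 libraries a group. Alternatives used DESeq2 1.42.0 and limma 3.58.1. The genes, lists and tests were chosen with earlier results of these data known. Values in every library were given for interferon-stimulated genes whose groups do not overlap, the smallest p and highest level of each role class, and named regulators and effectors. Of the pathway, the gene of smallest p in each list and a few set regulators were to be named, of which 1 is not reported here; the rest enter only the counts. Where a pathway symbol named several rows (IFNA3, IFNLR1), the first entered the counts. JAK1, CSF1R, GZMA and TMPRSS2 were named after their values were seen. RefSeq's table (GRCg7b) was used only for synonyms.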

Additional observations from a re-analysis of the deposited data

How the results depend on the processing

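The 32 genes were refitted under 15 alternatives, and 19 of them kept their sign in every one. The other 13 (IFIT5, TDRD7, EPSTI1, IFITM5, LY6E, PARP9, DHX58, ADAR, IRF1, IRF9, NMI, USP18 and SOCS1) were not called in the main comparison and changed sign in at least 1, IFITM5, ADAR and SOCS1 only under the macrophage scaling, which moves the median of all genes by 1.72. With RLE size factors, library totals, no low-count filter, a filter of at least 1 CPM in at least 3 libraries, or limma-trend on FPKM at log2 with a pseudocount of 1 or 0.1, the counts of risen and fallen interferon-stimulated genes and pathway genes remained 0. DESeq2 called 4 interferon-stimulated genes higher and 1 lower, and 1 pathway gene higher. Limma-voom with library quality weights called 2 higher (RSAD2 and HELZ2) and 2 lower (GBP and CD274), and 1 pathway gene higher and 9 lower. Scaled to the macrophage markers, 22 interferon-stimulated genes and 16 pathway genes were higher, and the median log2 fold change of the 32 genes was 2.03, a shift that the scaling gives to all genes. Leaving out each library in turn gave 0 to 3 higher and 0 to 2 lower interferon-stimulated genes and 0 to 1 higher and 0 to 10 lower pathway genes, all calls coming without LR3; the fits without any other library called 0 genes of the whole table, so their zeros say nothing about these genes. The median of the 32 genes lay between 0.10 without LR1_2 and 0.61 without LR4. Leaving out 1 library leaves 2 in its group. Apart from the scaling, the cause of these differences was not tested. With library totals the median of all genes moved by 0.15. No paired analysis was possible because the LPS+LR21 columns do not carry the replicate numbers of the sample titles, so the fit with a replicate block was not run. The depth limits the interferon ligands, of which IFNG alone was tested.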
